A study of Homo sapiens with 4 samples.

Results

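G1/S and DNA replication genes were followed in MDA-MB-231 cells, an established human breast carcinoma line, after knockdown of DROSHA. DROSHA is the nuclear nuclease that cuts primary microRNA transcripts. The 46 genes were chosen by name, as genes of the G1/S transition, origin licensing, the replication fork and deoxynucleotide supply. They are 46 of the 15870 genes named on the array. Each had 1 probe set among 18603 in all, so the choice of the brightest probe set per gene never arose. Of the 4 arrays, 2 measured total RNA of cells transfected with a hairpin that targets DROSHA, labelled shDROSHA, and 2 that of control cells labelled shNC, all grown in the same medium. The series' design text calls the control mock-transfected, and which of these names fits the control was not settled. Whether the cells were a clone or a pool, and how long the hairpin had acted, is not stated in the sources used here. Values are log2 signals, and a difference is always shDROSHA minus shNC.

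DNA replication is prepared in G1, when the origin recognition complex, CDC6 and CDT1 load the MCM helicase onto origins. At the G1/S transition cyclin E and its kinase, with DBF4 and CDC7, turn the loaded helicase into an active fork by adding CDC45 and the GINS complex. Polymerase alpha and primase then start each strand, the clamp PCNA and its loader RFC hand over to polymerases delta and epsilon, and FEN1 and LIG1 join the lagging strand. Many of these genes are E2F targets and are transcribed together in late G1. In RNA of a bulk culture, a larger share of cells in a phase and more RNA per cell cannot be told apart.

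DROSHA itself read 8.71 and 8.74 with the hairpin against 9.66 and 9.76 in shNC, so the labels and the targeted mRNA matched in all 4 arrays. The difference was -0.99 (SE 0.073, adjusted p = 3.89e-06). Adjusted p-values are from limma, with a prior variance that follows signal level (the trended fit), over all probe sets. Only genes under 0.05 in it are said to have risen or fallen. With 1 constant prior variance for all probe sets (the constant fit), the adjusted p of DROSHA was 0.0843. The 6 markers chosen as high in the line were bright, from CD44 at 9.45 to 9.66 to LGALS1 at 12.23 to 12.37. Among them AXL rose by 0.33 (adjusted p = 0.00442), CAV1 fell by 0.23 (adjusted p = 0.0031), and VIM, CD44, LGALS1 and S100A6 did not pass. The luminal markers measured (ESR1, GATA3 and EPCAM) lay between 6.02 and 7.20. Of 8 measured markers of other cell types 0 passed in either direction in limma, and 0 had an unadjusted p under 0.05 in either fit. CDH1, ERBB2 and PGR were not analysed here.

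Of the 46 replication genes 7 rose, 0 fell and 39 did not pass. The 7 were CCNE2, MCM6, TIPIN, TYMS, CDC6, PCNA and RRM1, and they come from 5 of the 7 role groups described here. They were 15.2% of the genes, against 3.12% called higher and 3.28% called lower among all probe sets. The trended fit calls bright probe sets more often, and the replication genes were bright. With each array centred on its median, 747 probe sets were called higher and 448 lower, against 581 and 611 as deposited, and 9 and 0 of the 46 genes. Among the 4694 probe sets at or above the lower quartile of their signal, 8.9% were called higher and 5.88% lower. At an unadjusted p under 0.05, 12 of the genes were higher and 5 lower, against 9.24% and 10.1% of all probe sets. The constant fit called 0 of the 46 (lowest adjusted p 0.17), as it called 0.00538% of all probe sets. At an unadjusted p under 0.05 it had 7 higher and 2 lower, against 6.8% and 8.11% of all probe sets.

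The shift of the whole set was small. The median difference over the 46 genes was 0.07, beside 0.00 over all probe sets, and single genes ranged from -0.35 to 0.50. The difference was positive for 29 and negative for 17. Of all probe sets 50.2% were positive, as were 54.5% of the 4694 at or above the lower quartile of the genes' signal. Both shDROSHA arrays lay above both shNC arrays for 22 of the genes (47.8%, against 23.4% of all probe sets), and below both for 11, against 24.4% of all probe sets. The median signal of the 46 genes was 9.31 and 9.22 in shDROSHA and 9.13 and 9.17 in shNC.

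**Figure D1:**
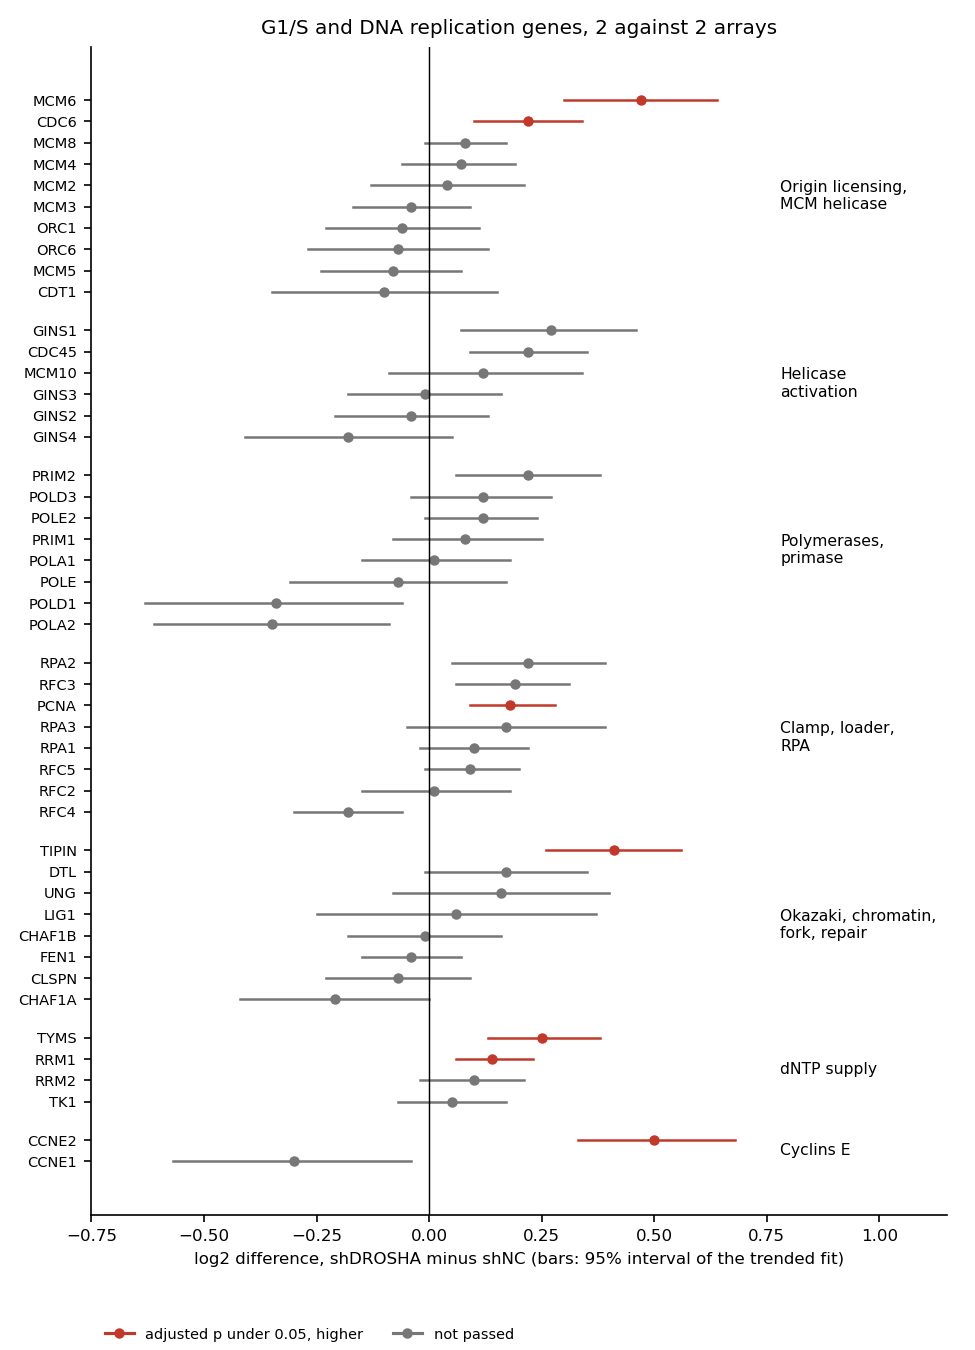
Log2 difference, shDROSHA minus shNC, of the 46 genes (horizontal axis), grouped by role. Points are differences of the means of 2 arrays, bars are 95% intervals of the trended fit, and the 7 red genes passed an adjusted p of 0.05. CCNE2, MCM6 and TIPIN lie farthest to the right, while POLA2, POLD1 and CCNE1 lie farthest to the left without passing.

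How firmly the 7 stood differed between them. CCNE2, MCM6 and TIPIN passed in each of 11 alternatives of the trended fit, all of which could have ended a call. In the fits without a shDROSHA array, these 3 genes had smaller adjusted p-values than with all 4 arrays, despite larger SEs. Passing those fits was therefore not a harder condition for them. CDC6 and TYMS passed in 9 of the 11, PCNA in 7 and RRM1 in 6. How many of all probe sets passed also changed between the fits on 3 arrays. Without shNC replicate 1 the differences of the 7 ran from 0.13 for RRM1 to 0.48 for MCM6. Over the 4 fits that each left out 1 array, CDC6 lay between 0.17 and 0.28 and TYMS between 0.18 and 0.32. PCNA lay between 0.16 and 0.21 and RRM1 between 0.13 and 0.16. Without shDROSHA replicate 1 the differences of CCNE1, POLA2, POLD1 and RFC4 were -0.47, -0.39, -0.43 and -0.24, each more negative than with all 4 arrays. That fit rests on 1 shDROSHA array, and with all 4 arrays these genes did not pass. The smallest two-sided p of an exact permutation test over 2 and 2 arrays is 0.333, and every call here depends on a spread estimated over many probe sets.

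**Figure D2:**
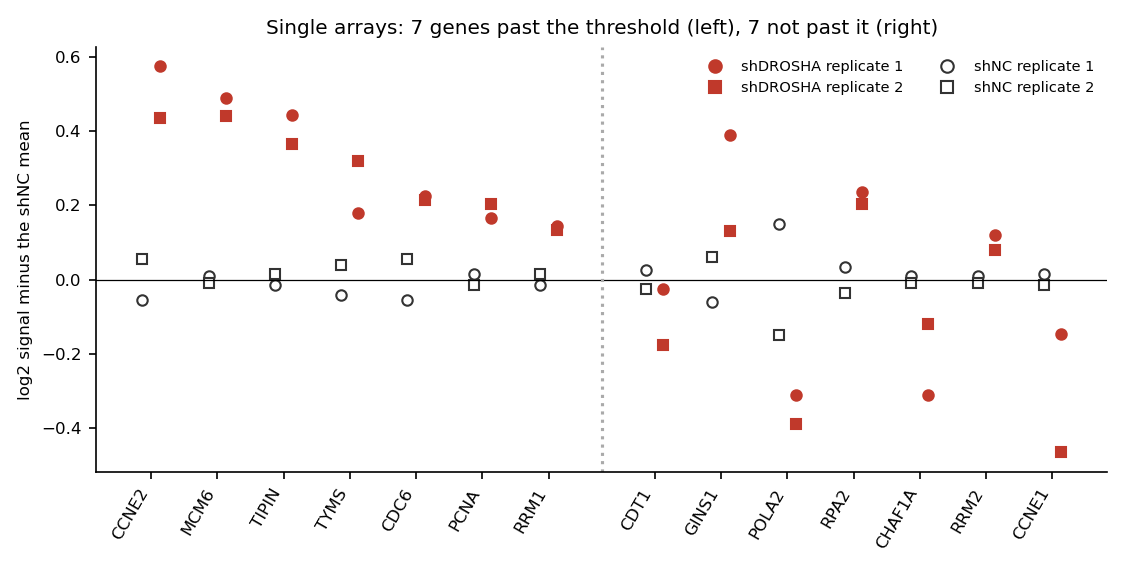
Log2 signal of single arrays minus the mean of the shNC arrays (vertical axis), for the 7 genes that rose (left) and, from each role group, the gene with the largest difference among those that did not pass (right). In the left part both shDROSHA arrays (filled) lie above both shNC arrays (open) for every gene; on the right the arrays lie on both sides of 0 from gene to gene.

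Promoters were read for the motif that E2F factors recognise, because E2F control is what many of these genes are known to share. The RefSeq promoter table of GRCh38.p14, with windows from 250 bases before to 50 after each gene's start, held 39 of the 46 genes. The motifs searched, on both strands and with 0 mismatches, were TTTCCCGC, TTTCGCGC, TTTGCCGC and TTTGGCGC. At least 1 was found for 21 of the 39 genes (53.8%), against 5.4% of 15843 protein-coding genes and 29.3% of 41 related replication genes. Counted by window, to allow for genes with several starts, it was 43.8% of 48 against 4.1% of 22199. The CCAAT box, read by NF-Y, was found for 61.5% of the 39 genes and for 42.1% of the protein-coding genes, and for 58.5% of the 41 related genes. Genes with and without the motif overlapped in their differences. The 21 genes with it had a median difference of 0.08, ranging from -0.35 to 0.47, and 5 of them rose. The 18 without it had a median of 0.03, ranging from -0.34 to 0.22, and 1 rose. Among all probe sets 3.12% were called higher, and among the 4694 bright ones 8.9%. The remaining gene that rose, CCNE2, was not among the 39. A match is a description of the letters and not a bound site.

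Stretches before the gene's start are shown for 3 genes that rose (MCM6, PCNA and TYMS) and 3 with a negative difference (MCM3, CDT1 and POLA2), 5′ to 3′ on the strand of the gene, with the E2F motifs in capitals. They lie at chr2:135876502-135876615 (minus strand) for MCM6, chr20:5126654-5126701 (minus) for PCNA, chr18:657594-657641 (plus) for TYMS, chr6:52284889-52284936 (minus) for MCM3, chr16:88803734-88803781 (plus) for CDT1 and chr11:65261889-65261936 (plus) for POLA2, all GRCh38.p14 and upstream of the annotated transcript.
MCM6: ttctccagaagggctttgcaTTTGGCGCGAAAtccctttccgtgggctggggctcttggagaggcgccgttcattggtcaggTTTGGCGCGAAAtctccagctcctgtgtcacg
PCNA: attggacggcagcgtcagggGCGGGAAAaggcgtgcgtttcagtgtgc
TYMS: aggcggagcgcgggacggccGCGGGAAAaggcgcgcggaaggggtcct
MCM3: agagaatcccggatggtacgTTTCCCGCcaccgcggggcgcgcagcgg
CDT1: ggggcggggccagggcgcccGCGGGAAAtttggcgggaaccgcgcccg
POLA2: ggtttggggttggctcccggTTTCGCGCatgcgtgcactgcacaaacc
The MCM6 stretch holds 4 matches, as a pair of sites at each of which a match on one strand overlaps a match on the other. The other stretches hold 1 match each, and the same 8 letters stand in PCNA and TYMS, which rose, and in CDT1, which differed by -0.10 without passing.

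Among the 10 genes of origin licensing and the MCM helicase, 2 rose and 0 fell, and the median difference was 0.00. Of all probe sets 3.12% were called higher, and of the bright ones 8.9%. MCM6, a subunit of the six-membered replicative helicase, read 8.98 and 8.93 in shDROSHA and 8.50 and 8.48 in shNC. Both knockdown arrays were higher, with a difference of 0.47 (1.38-fold, SE 0.08, adjusted p = 0.00319). CDC6, the ATPase that recruits the helicase to origins, read 10.53 and 10.52 against 10.25 and 10.36, again without overlap. It rose by 0.22 (1.17-fold, SE 0.057, adjusted p = 0.033).

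The other 4 subunits of the same helicase ring among the 46 genes did not pass. Differences were 0.07 for MCM4 (95% interval -0.06 to 0.19), 0.04 for MCM2 (-0.13 to 0.21), -0.04 for MCM3 (-0.17 to 0.09) and -0.08 for MCM5 (-0.24 to 0.07). All 4 intervals end below the difference of MCM6, although the gap between the subunits was not itself tested. MCM8, a related helicase of recombination repair, differed by 0.08. The largest difference among those that did not pass belonged to CDT1, the licensing factor that geminin inhibits, which read 7.43 and 7.28 in shDROSHA and 7.48 and 7.43 in shNC, a difference of -0.10 (SE 0.12). Its groups lay close together. ORC1 and ORC6, subunits of the origin recognition complex, differed by -0.06 and -0.07.

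Helicase activation gave 0 calls among 6 genes in limma. At an unadjusted p under 0.05, 2 were higher and 0 lower in the trended fit, against 9.24% and 10.1% of all probe sets. The constant fit had 1 higher and 0 lower at that unadjusted p, against 6.8% and 8.11% of all probe sets. GINS1, a subunit of the GINS complex, had the largest difference, at 9.37 and 9.11 in shDROSHA against 8.92 and 9.04 in shNC. The groups did not overlap, but shDROSHA replicate 2 was nearer to the controls (difference 0.27, SE 0.09, adjusted p = 0.104). CDC45, which completes the active helicase, read 9.92 and 9.86 against 9.68 and 9.66. It stayed just short of the threshold (difference 0.22, SE 0.062, adjusted p = 0.0527) and passed in 6 of the 11 trended alternatives. MCM10, needed for helicase activation, differed by 0.12. The remaining GINS subunits were spread around 0, with GINS3 at -0.01, GINS2 at -0.04 and GINS4 at -0.18.

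None of the 8 polymerase and primase genes passed in limma. At an unadjusted p under 0.05, 1 was higher and 2 were lower in both fits. Of all probe sets 9.24% were higher and 10.1% lower in the trended fit at that p, and 6.8% and 8.11% in the constant fit. POLA2, the B subunit of polymerase alpha, read 7.51 and 7.43 in shDROSHA and 7.97 and 7.67 in shNC. Both knockdown arrays lay below both controls, which themselves differed by more than the knockdown arrays did (difference -0.35, SE 0.12, adjusted p = 0.113). POLD1, the catalytic subunit of polymerase delta, differed by -0.34 (SE 0.13, adjusted p = 0.153). In the opposite direction, PRIM2, the large primase subunit, differed by 0.22 (SE 0.074, adjusted p = 0.0965). The catalytic subunits POLA1 and POLE differed by 0.01 and -0.07, the small primase subunit PRIM1 by 0.08, and the accessory subunits POLD3 and POLE2 by 0.12 each. The subunits of one polymerase complex therefore had differences on both sides of 0.

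Clamp, clamp loader and single-strand binding genes were mostly positive, at 7 of 8, 6 of them without overlap between the groups, and a median of 0.13. Of all probe sets 50.2% were positive (54.5% of the bright ones) and 23.4% lay higher without overlap. PCNA, the sliding clamp, read 11.29 and 11.33 in shDROSHA and 11.14 and 11.11 in shNC. The gap was small but wider than the spread within either group (difference 0.18, 1.14-fold, SE 0.046, adjusted p = 0.0266). RPA2, a subunit of the single-strand binding protein RPA, read 8.95 and 8.92 against 8.75 and 8.68 (difference 0.22, SE 0.079, adjusted p = 0.12). It did not pass, nor did its partners RPA3 (0.17) and RPA1 (0.10). In the clamp loader, RFC3 differed by 0.19 (adjusted p = 0.072), RFC5 by 0.09 and RFC2 by 0.01, whereas RFC4 differed by -0.18 (adjusted p = 0.074). RFC4 was called lower in 3 of the 11 trended alternatives.

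Of 8 genes of the lagging strand, chromatin assembly, fork protection and repair, 1 rose (12.5%). Called higher were 3.12% of all probe sets and 8.9% of the bright ones. TIPIN, which with TIMELESS and claspin protects stalled forks, read 9.61 and 9.53 in shDROSHA and 9.15 and 9.18 in shNC. The groups were well apart (difference 0.41, 1.32-fold, SE 0.07, adjusted p = 0.00328). CLSPN, the gene of claspin, differed by -0.07 (95% interval -0.23 to 0.09). CHAF1A, the large subunit of the histone chaperone CAF-1, had the largest difference among those that did not pass, reading 8.08 and 8.27 against 8.40 and 8.38 (difference -0.21, SE 0.096, adjusted p = 0.249). Its partner CHAF1B differed by -0.01. The flap nuclease FEN1 and the ligase LIG1 differed by -0.04 and 0.06, and LIG1 was the 1 gene of the 46 below the median signal of the array. DTL, which targets CDT1 for destruction, differed by 0.17, and UNG, which removes uracil from DNA, by 0.16.

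All 4 genes of deoxynucleotide supply were higher in both shDROSHA arrays than in both controls, and 2 rose. Of all probe sets 23.4% lay higher without overlap, and of the 4694 bright ones 8.9% were called higher. TYMS, thymidylate synthase, read 10.76 and 10.90 in shDROSHA and 10.54 and 10.62 in shNC (difference 0.25, 1.19-fold, SE 0.058, adjusted p = 0.0186). RRM1, the large subunit of ribonucleotide reductase, read 11.97 and 11.96 against 11.81 and 11.84. This was the smallest rise of the 7 (difference 0.14, 1.10-fold, SE 0.039, adjusted p = 0.0471). RRM2, its small and cell-cycle-regulated subunit, read 10.57 and 10.53 against 10.46 and 10.44, a difference of 0.10 that did not pass (adjusted p = 0.354). TK1, thymidine kinase, differed by 0.05 (95% interval -0.07 to 0.17).

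The E-type cyclins, which activate CDK2 at the G1/S transition, had differences of opposite sign. CCNE2 read 9.44 and 9.30 in shDROSHA and 8.81 and 8.92 in shNC. It had the largest rise of the 46 genes (difference 0.50, 1.42-fold, SE 0.079, adjusted p = 0.00179). CCNE1 read 7.64 and 7.32 against 7.80 and 7.77. Both knockdown arrays were lower and they differed from each other by more than the controls did (difference -0.30, SE 0.12, adjusted p = 0.176). It did not pass, and its difference was between -0.47 and -0.14 when single arrays were left out.

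Genes of the same pathway outside the 46 were taken from a list of 50. Of these, 46 were measured, 6 rose (13.0%, against 3.12% of all probe sets and 8.9% of the bright ones) and 0 fell, and the median difference was 0.08. At an unadjusted p under 0.05 in the trended fit, 12 were higher and 1 was lower, against 9.24% and 10.1% of all probe sets. The 6 were SLBP, DBF4, RNASEH2B, ATAD5, TOP2A and MCMBP. SLBP, which binds the stem-loop of histone mRNAs, rose by 0.46 (SE 0.096) and DBF4, the activator of the CDC7 kinase, by 0.43 (SE 0.065). RNASEH2B, a subunit of ribonuclease H2, rose by 0.39 (SE 0.097). ATAD5, which unloads PCNA, rose by 0.28 (SE 0.076), TOP2A, topoisomerase II alpha, by 0.27 (SE 0.056), and MCMBP, which binds MCM subunits, by 0.25 (SE 0.054). Their adjusted p-values lay between 0.00134 and 0.04 in the trended fit, and the constant fit called 0 of the 46. At an unadjusted p under 0.05 the constant fit had 6 higher and 1 lower, against 6.8% and 8.11% of all probe sets. MCM7, the remaining subunit of the ring beside MCM2 to MCM6, read 11.20 and 11.22 in shDROSHA and 11.00 and 11.11 in shNC, a difference of 0.15 (adjusted p = 0.0882). Without shNC replicate 1 only DBF4 was called, and without shNC replicate 2 it was DBF4, TOP2A and SLBP. TIMELESS, RNASEH2C and ASF1B differed by -0.37, -0.18 and -0.22 in the fit on all arrays and did not pass. They were called lower without shDROSHA replicate 1, in a fit that also called more of all probe sets lower. That fit rests on 1 shDROSHA array, so these lower calls are not counted as falls. SHMT1, PCLAF and DONSON were not analysed here.

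**Figure D3:**
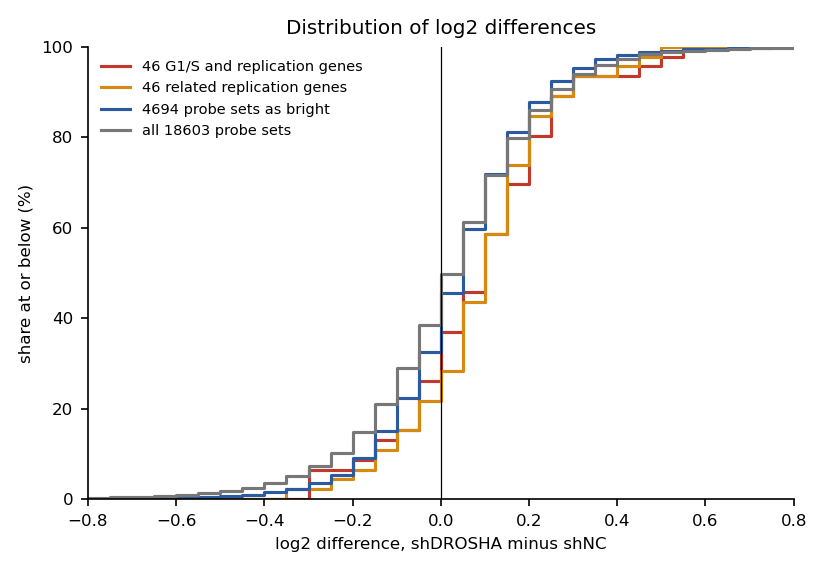
Share of genes or probe sets (vertical axis, percent) with a log2 difference at or below the value on the horizontal axis, in steps of 0.05. Around 0 the curves of the 46 replication genes and the 46 related genes lie right of that of all 18603 probe sets. At or below 0 were 37.0% and 28.3% of these genes, against 49.8% of all probe sets. The 4694 probe sets labelled as bright are those at or above the lower quartile of the 46 genes' signal. Of them 45.5% were at or below 0.

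Genes whose products work together did not always have like differences. The pairs given here were picked after their values were seen, so their ratios are a description with no test. The ratio of CCNE2 to CCNE1 was higher by 0.81 in shDROSHA on the log2 scale. That of TIPIN to TIMELESS, its partner in the fork protection complex, was higher by 0.78: TIMELESS itself read 7.36 and 7.24 in shDROSHA against 7.71 and 7.64 in shNC (difference -0.37, adjusted p = 0.0697). The ratio of DBF4 to its kinase CDC7 was higher by 0.49, with CDC7 differing by -0.06. Within complexes, PRIM2 over POLA2 was higher by 0.57, MCM6 over MCM5 by 0.55 and RFC3 over RFC4 by 0.36.

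**Figure D4:**
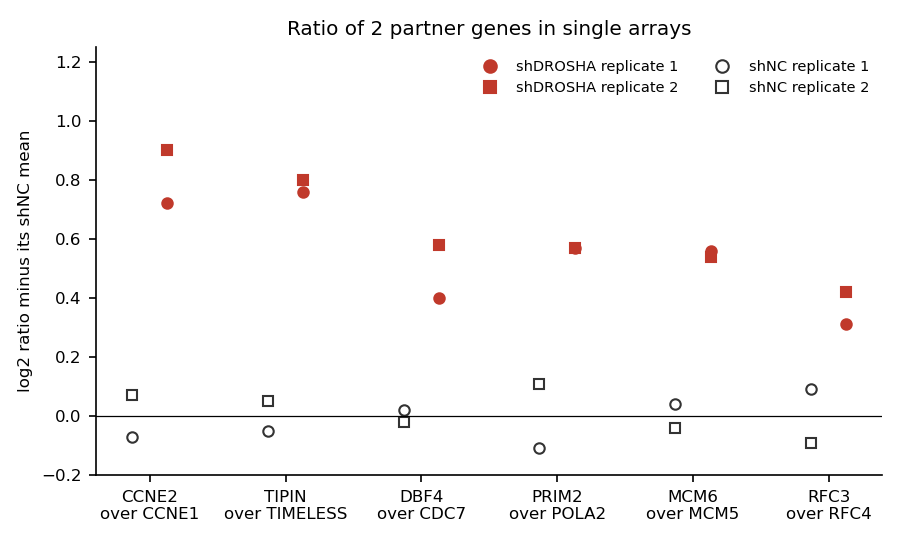
Log2 ratio of the signals of 2 partner genes in single arrays, minus its mean in the shNC arrays (vertical axis), for 6 pairs picked after their values were seen. Filled points are shDROSHA arrays, from 0.31 to 0.90, and open points are shNC arrays, from -0.11 to 0.11.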

How the data were processed

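The authors deposited log2 signals, 1 per probe set and array, made with RMA per the submitters' processing notes; RMA removes background, equalises quantiles over the arrays and condenses probes into probe sets. Its version, the genome build and any filter are not stated in the sources used here, so no coordinates of probe sets are printed. Since it gives arrays like distributions, a change common to most transcripts is hidden. Symbols come from the platform annotation, updated through Entrez identifiers with RefSeq's table (GRCh38.p14); 15886 of 18603 probe sets had 1 symbol.

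All probe sets were fitted with limma 3.58.1 in R 4.3.3 (lmFit, eBayes), Benjamini-Hochberg adjustment and a threshold of 0.05. The trended prior had 11.9 degrees of freedom and the constant prior 3, beside 2 residual ones. The genes, the lists and the choice of the trended fit were made with earlier results of these data known. Replicates are called biological in the titles; how cultures, hybridizations or scans were batched is not stated in the sources used here. Among the 46 genes, array values are given for those that passed and for the largest difference among those that did not in each role group. Values of CDC45, which is neither, and of DROSHA, MCM7 and TIMELESS, which are outside the 46, are given as well. The fits were tested on simulated data. The number of arrays limits the precision. Each of the 46 genes had 1 probe set, so the mean of a gene's probe sets changes nothing, and a looser threshold cannot end a call; neither is counted where passes are tallied. Alternatives covered priors, dim probe sets, 1 probe set per gene, normalization, the threshold, a replicate block and leaving out each array, where the lone array is assumed to vary like the other group. In fits on 3 arrays and with the block, 1 residual degree of freedom was left.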

Additional observations from a re-analysis of the deposited data

How the results depend on the processing

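In the trended fit 7 of the 46 genes were called higher and 0 lower, and 6 and 0 of the related genes. With a constant prior variance these were 0 and 0 for both lists, and DROSHA, at -0.99, had an adjusted p of 0.0843. With quantile normalization again, 4 of the 46 were called higher (CCNE2, MCM6, TIPIN and TYMS) and 1 lower (RFC4). Of all 18603 probe sets 562 (3.02%) were called higher there and 646 lower. With the dimmer 50% of probe sets left out, and at adjusted p 0.10, RFC4 and the related gene TIMELESS made 1 lower call in each list. Called lower in these 2 settings were 654 of 9302 and 946 of 18603 probe sets. An alternative chosen after seeing the data joined the constant prior variance with leaving out those dim probe sets. It tested 45 of the 46 genes and 43 related genes. Called higher were 3 of the 45 (CCNE2, MCM6 and TIPIN) and 1 related gene (DBF4), and 1 related gene (TIMELESS) was called lower. Of the 9302 probe sets tested, 221 (2.38%) were called higher and 321 lower. Leaving out single arrays changed which genes were called in both lists, and also how many of all probe sets were called. Among those fits, lower calls arose in both lists only without shDROSHA replicate 1. The median difference of the 46 genes was 0.06 to 0.07 in them. With the replicate number as a block, 8 of the 46 were called higher, the same 7 and CDC45, against 3.74% of all probe sets. Deviations of the arrays numbered 1 correlated at -0.0218 across probe sets, so the numbers were not taken to pair the arrays. The median difference of the 46 genes stayed positive in all alternatives run. Differences near 0 changed sign: with arrays centred on their medians GINS3 was 0.02 and CHAF1B 0.02, and with quantile normalization again GINS3 was 0.00 and RFC2 -0.02. On leaving out single arrays the ranges that crossed or touched 0 were GINS3 -0.06 to 0.04, PRIM1 -0.02 to 0.18, RFC2 -0.10 to 0.13, GINS2 -0.11 to 0.03, POLA1 -0.02 to 0.05, POLE -0.14 to 0.00, FEN1 -0.08 to 0.00, CHAF1B -0.05 to 0.03, ORC1 -0.16 to 0.04, UNG -0.03 to 0.35 and MCM2 -0.02 to 0.09. The causes were not tested.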

Other observations

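The differences of the replication genes went with how bright their probe sets were. Of the 23 genes above their median signal of 9.16, 18 were positive (78.3%), 5 rose and the median difference was 0.10. Of the 23 dimmer genes 11 were positive (47.8%), 2 rose and the median was -0.01. All probe sets within the same range of signal showed the same direction more weakly, with 55.9% positive above that signal and 46.1% at or below it. Of these probe sets 10.1% above that signal and 2.34% at or below it were called higher, against 21.7% and 8.7% of the genes. Across the 46 genes Spearman's rho between mean signal and difference was 0.35, and across the 11867 probe sets of that range it was 0.09; genes share the arrays and their normalization, so both are descriptions. CCNE1, POLA2 and POLD1, which had the most negative differences, were all in the dimmer part, and so were 2 of the genes that rose, CCNE2 and MCM6. The part of signal level in these differences was not tested.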
